A study of Homo sapiens with 6 samples.

Results

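The mRNA levels of 10 genes of the NF-κB system were followed in HT1080 cells with and without interferon β (IFNβ). They are the 5 NF-κB subunits NFKB1, NFKB2, REL, RELA and RELB, the IκB family genes NFKBIA, NFKBIE and NFKBIZ, and the feedback genes TNFAIP3 and BIRC3. They were taken from a list of symbols, and each was matched through a table of gene names to its Ensembl identifier, which gave 10 of the 62710 genes of the deposited table. HT1080 is an established human fibrosarcoma line. RNA-seq was run on 3 untreated libraries and on 3 libraries from cells given 20 ng/mL IFNβ for 24 h. The labels name human IFNβ, and so do the study's cell culture methods for HT1080. The study's RNA-seq methods name mouse IFNβ, in a sentence that covers HT1080 and a mouse line together. No genetic change was introduced in either group, and the labels do not say whether the 3 libraries of a group came from separate cultures, so that p-values measure only the spread between libraries, which may be technical.

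NF-κB is a family of dimeric transcription factors that are held inactive in the cytoplasm by IκB proteins until a kinase complex, IKK, marks the inhibitor for destruction. RELA and the p50 product of NFKB1 form the classical dimer, while RELB and the p52 product of NFKB2 form the dimer of the slower, non-canonical arm. Many NF-κB target genes encode brakes on the pathway, among them the inhibitor IκBα (NFKBIA), the ubiquitin-editing enzyme A20 (TNFAIP3) and the ubiquitin ligase cIAP2 (BIRC3).

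The libraries held between 22848104 and 32915500 fragments, as recovered from the steps of the deposited FPKM values (fragments scaled to gene length and library size). All 7 genes of an interferon check list rose in the treated libraries, by 2.79 (IRF9) to 8.67 (IFIT1) on the log2 scale. ISG15, a ubiquitin-like antiviral protein, stood at 10.0, 10.9 and 10.6 FPKM in the untreated and 1414, 1463 and 1468 FPKM in the treated libraries. Of 8 mesenchymal markers, 6 had a mean of at least 1 FPKM, and the summed level of the list was 1147 to 1206 FPKM untreated and 1170 to 1222 FPKM treated. Of the 7 tested mesenchymal markers, FN1, SPARC and PDGFRB were higher (log2 fold changes 0.51, 0.32 and 0.77) and VIM and CD44 lower (−0.29 and −0.088), and their part in the results was not tested. None of 6 epithelial or 7 leukocyte markers reached 1 FPKM, and 5 of each list stayed under 0.1 FPKM. Their summed levels ranged from 0.243 to 0.445 FPKM untreated and 0.585 to 0.691 FPKM treated for the epithelial list, with EPCAM at 0 in the untreated libraries and CLDN4, its only tested gene, called higher (0.314 to 0.575 FPKM in the mean, log2 fold change 0.73, limma adjusted p = 0.047), and from 0.227 to 0.579 and 0.253 to 0.488 FPKM for the leukocyte list. In bulk RNA, fewer cells of a type and less RNA per cell cannot be told apart.

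The promoters of the 10 genes are shown first, because NF-κB genes are known to be regulated by NF-κB itself. A table of RefSeq promoters (GRCh38.p14), each with 250 bases before and 50 bases after a transcript start, held 13 promoters for 8 of the genes and no entry for RELB or NFKBIE. They were searched on both strands for the κB consensus, for the interferon-stimulated response element (ISRE, letters GAAANNGAAA) and for the interferon-gamma activated site (GAS, letters TTCNNNGAA), and overlapping matches to the same motif were merged. κB letters were found in 9 of the 13 promoters (69.2%), compared with 3956 of all 35116 promoters (11.3%). Of the 8 genes with an entry, all but RELA had a κB match. RELA was also the only gene with ISRE letters (3.57% of all promoters) or GAS letters (7.66%), both at its second start. The bases just after that start were not found in a RELA transcript of GENCODE release 29, and this promoter lies outside the RELA gene span given below. The first RELA start held no match. The bases after the second NFKB2 start were likewise not found in a transcript of that release. To show the letters that were matched, 1 window each is printed for 4 genes with κB letters and for the ISRE letters of RELA, with 12 bases on either side, 5′ to 3′ in the direction of transcription, with the matched letters in capitals. They cover chr11:102317273-102317370 (+) for BIRC3, chr4:102501298-102501331 (+) for NFKB1, chr14:35404809-35404842 (−) for NFKBIA, chr3:101827755-101827788 (+) for the first NFKBIZ start and chr11:65664073-65664106 (−) for the second RELA start.
BIRC3, κB: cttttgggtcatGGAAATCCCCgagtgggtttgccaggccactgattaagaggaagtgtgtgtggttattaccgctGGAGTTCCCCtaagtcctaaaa
NFKB1, κB: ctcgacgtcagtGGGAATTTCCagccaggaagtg
NFKBIA, κB: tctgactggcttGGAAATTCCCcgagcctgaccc
NFKBIZ, κB: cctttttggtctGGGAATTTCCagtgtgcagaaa
RELA, ISRE: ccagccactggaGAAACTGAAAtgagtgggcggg
A match is a description of letters and not a site of binding. The 7 genes with κB letters include genes that were called higher, one that was called lower and genes that were not called.

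**Figure D1:**
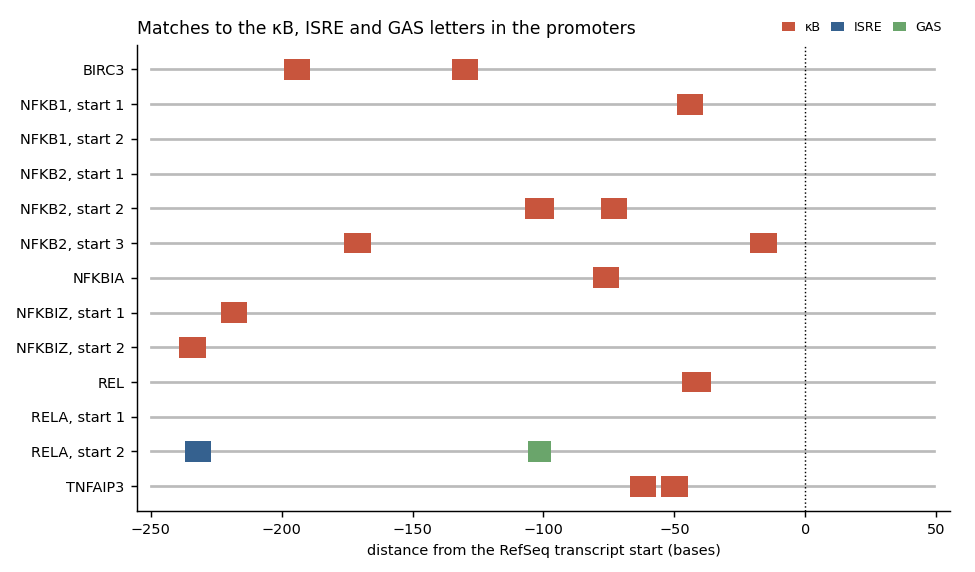
Positions of the matches in the 13 RefSeq promoters of 8 genes. The x axis is the distance in bases from the transcript start, each grey line is 1 promoter, and boxes are κB, ISRE or GAS matches. κB boxes lie in 9 promoters, all before the start, and the RELA promoter of the second start alone holds ISRE and GAS boxes.

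IFNβ changed the mRNA of 5 of the 10 genes. BIRC3, NFKB2, NFKBIZ and RELA were higher, NFKB1 was lower, and REL, RELB, NFKBIA, NFKBIE and TNFAIP3 did not pass the test (limma on log2(FPKM + 0.1), Benjamini-Hochberg adjusted p under 0.05 over 20716 tested genes). Among all tested genes 32.7% were called, 15.2% higher and 17.5% lower, against 4 higher and 1 lower of the 10. The share called depends on level. With a filter of 1 FPKM, 6451 of 11996 genes were called. Of the 10 genes 8 were then kept, without BIRC3 and REL, and 4 were higher, RELB among them, and 1 lower. None of the 10 genes was called with a log2 fold change of at least 1 in either direction, a rule that 4.22% of all tested genes met. For 8 of the 10 genes the treated and untreated libraries did not overlap, and this held for 46.6% of all tested genes. The median log2 fold change of the 10 genes was 0.17 with a range from −0.16 to 1.00, beside a median of 0.00017 over all tested genes. Fold changes on the log2(FPKM + 0.1) scale understate the change of low genes.

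**Figure D2:**
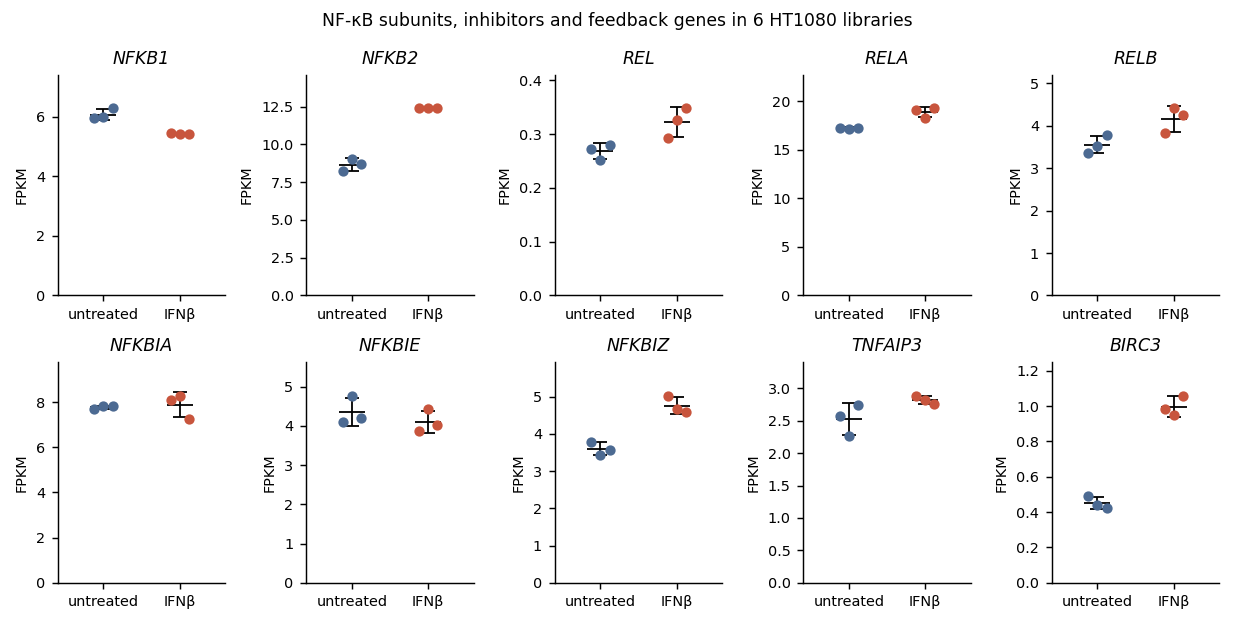
FPKM of each of the 10 genes in the 3 untreated and the 3 IFNβ-treated libraries. Points are libraries, horizontal bars are means and error bars are SD (n = 3 per group), and each axis starts at 0. The groups overlap for NFKBIA and NFKBIE and are separate for the other genes.

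Among the subunits, RELA, the main transactivating subunit of the classical dimer, was the most abundant. RELA (ENSG00000173039, chromosome 11, 65653596 to 65663094, GRCh38) stood at 17.3, 17.2 and 17.3 FPKM untreated and at 19.1, 18.3 and 19.3 FPKM after IFNβ. All treated libraries lay above all untreated ones, with means of 17.3 ± 0.087 and 18.9 ± 0.518 FPKM (SD, n = 3). The log2 fold change was 0.13 (SE 0.026, 95% interval 0.067 to 0.19, limma adjusted p = 0.01), and the call was lost without the intensity trend in the variance (adjusted p = 0.055). The divergent transcript RELA-DT shares 9 exon bases with RELA on the opposite strand and averaged 0.365 FPKM untreated and 0.338 FPKM treated.

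NFKB2, which encodes the p100 precursor that is both an inhibitor and the source of p52, changed most among the subunits. NFKB2 (ENSG00000077150, chromosome 10, 102394110 to 102402529) had 8.25, 9.07 and 8.7 FPKM untreated and 12.4 FPKM in each treated library. The 3 treated values were tightly grouped and all above the untreated ones, a mean rise from 8.68 ± 0.41 to 12.4 ± 0.0431 FPKM (SD, n = 3). This is a ratio of 1.43, with a log2 fold change of 0.51 (SE 0.038, 95% interval 0.42 to 0.60, limma adjusted p = 0.00016). The values rest on 1053 to 2128 fragments per library.

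NFKB1, which encodes p105 and its product p50, moved the other way. NFKB1 (ENSG00000109320, chromosome 4, 102501329 to 102617302) had 5.95, 5.97 and 6.28 FPKM untreated and 5.45, 5.41 and 5.4 FPKM after IFNβ. Every treated library was below every untreated one, and the means were 6.06 ± 0.186 and 5.42 ± 0.0242 FPKM (SD, n = 3). NFKB1 fell by 0.16 on the log2 scale (SE 0.034, 95% interval −0.24 to −0.075, limma adjusted p = 0.014), a ratio of 0.894.

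RELB, the partner of p52 in the non-canonical dimer, had 3.36, 3.53 and 3.77 FPKM untreated and 3.82, 4.41 and 4.24 FPKM treated. RELB (ENSG00000104856, chromosome 19, 45001430 to 45038198) was separated by library but narrowly, the lowest treated value lying just above the highest untreated one. With means of 3.55 ± 0.207 and 4.16 ± 0.3 FPKM (SD, n = 3) and a log2 fold change of 0.22 (SE 0.07, 95% interval 0.051 to 0.39) it missed the threshold (limma adjusted p = 0.055). It passed in 4 of 16 other settings, among them without treated library 1 (adjusted p = 0.03).

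REL, or c-Rel, a subunit best known from lymphoid cells, was the lowest of the 10 genes. REL (ENSG00000162924, chromosome 2, 60881521 to 60931610) had 0.273, 0.252 and 0.28 FPKM untreated and 0.292, 0.327 and 0.348 FPKM treated, from 107 to 172 fragments per library. The groups did not overlap, yet the log2 fold change of 0.19 (SE 0.17, 95% interval −0.21 to 0.60) was not called (limma adjusted p = 0.44). An overlapping noncoding gene on the same strand (ENSG00000267520) shares 5702 exon bases with REL and is listed at 0 in all libraries, so that the level of REL depends on how shared fragments were assigned, which the sources used here do not state. The snRNA pseudogene RNU4-51P inside REL is also listed at 0.

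**Figure D3:**
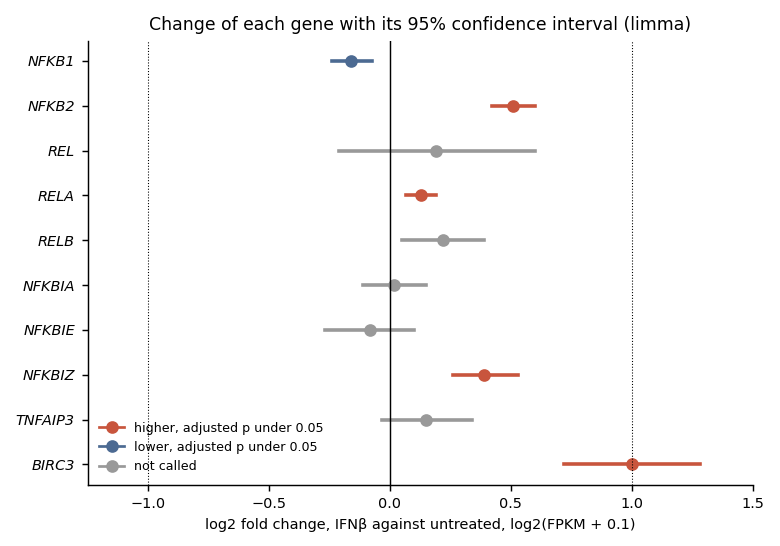
Log2 fold change of each gene, treated against untreated, with its 95% confidence interval from limma. Red and blue mark genes called higher and lower, grey marks genes not called, and dotted lines mark a log2 fold change of 1 in either direction. BIRC3 has the largest change and the interval of NFKB1 lies below 0.

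The make-up of subunit mRNA shifted from NFKB1 towards NFKB2. Of the summed FPKM of the 5 subunits, NFKB2 took 23.5, 25.2 and 23.9% in the untreated and 30.1, 30.4 and 29.7% in the treated libraries. The share of NFKB1 was 16.9, 16.6 and 17.3% untreated and 13.3, 13.2 and 13% treated. For both genes the groups did not overlap, and the mean shares moved by 5.88 percentage points for NFKB2 and −3.76 for NFKB1. RELA took 48.2 ± 0.935% untreated and 45.9 ± 0.973% treated (SD, n = 3), again without overlap, although its own level was higher. The shares of RELB, at 9.91 ± 0.422% and 10.1 ± 0.736%, and of REL, at 0.749 ± 0.0432% and 0.782 ± 0.064%, overlapped. With 3 against 3 libraries an exact permutation test cannot go below p = 0.1, so no p is given for shares or ratios.

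Shares and the order of genes depend on the length by which fragments are divided. The FPKM steps gave a length of 15679 bases for NFKB1 and 5583 bases for NFKB2, whereas the merged exons of the genes in GENCODE release 29 span 6257 and 4484 bases. On the release 29 exon length, NFKB1 was the higher of the pair without IFNβ, at 15.2 ± 0.466 against 10.8 ± 0.51 (SD, n = 3, on the FPKM scale), and the lower with IFNβ, at 13.6 ± 0.0607 against 15.4 ± 0.0537. On the deposited scale NFKB2 was the higher in both groups. The change in their log2 ratio within a library, 0.68, does not depend on length, and the untreated and treated ratios did not overlap. On the release 29 length the share of NFKB1 moved from 32.2 ± 0.573 to 25.9 ± 0.246%, that of NFKB2 from 22.9 ± 0.879 to 29.4 ± 0.289%, and the shares of RELA overlapped between groups, at 36.6 ± 0.767 and 36 ± 0.802%.

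**Figure D4:**
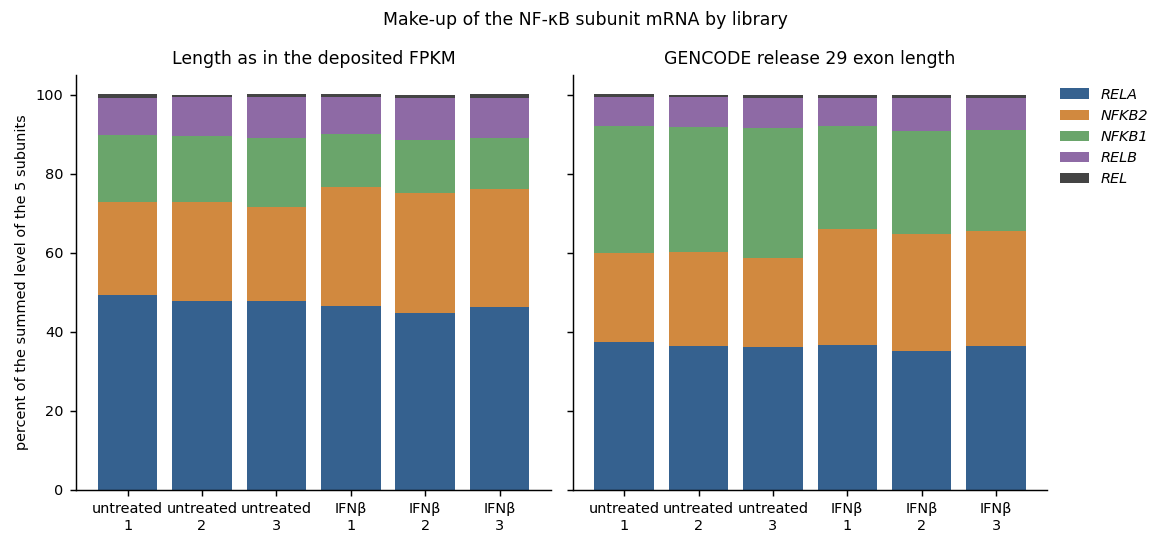
Share of each subunit in the summed level of the 5 subunits, as percent, in each of the 6 libraries. The left panel uses the deposited FPKM and the right panel the release 29 exon length. In both panels the NFKB2 segment is taller and the NFKB1 segment shorter in the treated libraries.

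The IκB family genes did not move together. NFKBIZ, which encodes the nuclear protein IκBζ, a co-regulator of a subset of NF-κB target genes, had 3.78, 3.44 and 3.57 FPKM untreated and 5.03, 4.67 and 4.58 FPKM treated. NFKBIZ (ENSG00000144802, chromosome 3, 101827991 to 101861022) was higher in all treated libraries, with means of 3.6 ± 0.171 and 4.76 ± 0.238 FPKM (SD, n = 3), a ratio of 1.32. The log2 fold change was 0.39 (SE 0.055, 95% interval 0.26 to 0.53, limma adjusted p = 0.0024).

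NFKBIA, the IκBα gene and the best known feedback target of RELA, had 7.7, 7.81 and 7.82 FPKM untreated and 8.11, 8.29 and 7.27 FPKM treated. The treated libraries of NFKBIA (ENSG00000100906, chromosome 14, 35401511 to 35404749) lay on both sides of the untreated ones, and the means were 7.78 ± 0.0697 and 7.89 ± 0.545 FPKM (SD, n = 3). The log2 fold change was 0.018 with a 95% interval from −0.11 to 0.15 (limma adjusted p = 0.84). NFKBIE, which encodes IκBε, had 4.09, 4.77 and 4.19 FPKM untreated and 3.86, 4.42 and 4.01 FPKM treated, and its groups overlapped as well. For NFKBIE (ENSG00000146232, chromosome 6, 44258166 to 44265788) the log2 fold change was −0.083, with a 95% interval from −0.27 to 0.10 (limma adjusted p = 0.48).

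Within a library, NFKBIZ rose relative to NFKBIA. Their log2 ratio was −1.11 ± 0.08 untreated and −0.73 ± 0.088 treated (SD, n = 3) and the groups did not overlap. The log2 ratio of NFKBIA to RELA, inhibitor to its main client, was −1.15 ± 0.018 untreated and −1.26 ± 0.13 treated, and that of RELB to RELA was −2.28 ± 0.084 and −2.19 ± 0.13. Both of these overlapped between the groups.

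Of the feedback genes, BIRC3 had the largest change of the 10. BIRC3 (ENSG00000023445, chromosome 11, 102317450 to 102339403), which encodes a ubiquitin ligase that restrains cell death at the TNF receptor and turns over the kinase NIK, had 0.489, 0.439 and 0.424 FPKM untreated and 0.985, 0.948 and 1.06 FPKM treated. All treated libraries were well above all untreated ones, with means of 0.451 ± 0.0339 and 0.999 ± 0.0591 FPKM (SD, n = 3), a ratio of 2.21. The log2 fold change was 0.996 (SE 0.12, 95% interval 0.72 to 1.28, limma adjusted p = 0.0011), just under 1. It rested on 84 to 105 fragments per untreated and 178 to 231 per treated library, and it reached 1 and stayed called in 6 of 15 other settings. Its size depended on the pseudocount, at 0.46 with 1 FPKM added and 1.13 with 0.01 FPKM added.

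BIRC2, its relative and neighbour on chromosome 11, encodes cIAP1 and is also in the list of receptor-proximal adaptors below. It is named here after its values and those of BIRC3 were seen. BIRC2 stood at 18.3, 16.5 and 18.3 FPKM untreated and 22.5, 21.3 and 21.1 FPKM treated, without overlap. Its log2 fold change was 0.29 (SE 0.049, limma adjusted p = 0.0048). How fragments that fit both genes were assigned is not given in the sources used here.

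The genes whose pattern over the 6 libraries was nearest to that of BIRC3, by Euclidean distance among 11996 genes with a mean of at least 1 FPKM, were PI4K2B (distance 0.109), SCARB2 (0.136), GOLM1 (0.138), TMEM219 (0.14) and H2AC6 (0.142). Their log2 fold changes lay between 0.95 and 1.04. The distance mostly reflects the size of the difference between the groups.

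TNFAIP3, the gene of A20, had 2.57, 2.27 and 2.75 FPKM untreated and 2.89, 2.82 and 2.76 FPKM treated. For TNFAIP3 (ENSG00000118503, chromosome 6, 137867188 to 137883312) the groups were separated by a hair, with means of 2.53 ± 0.24 and 2.82 ± 0.0649 FPKM (SD, n = 3). The log2 fold change of 0.15 (SE 0.076, 95% interval −0.031 to 0.34) was not called (limma adjusted p = 0.18). The antisense gene WAKMAR2 shares 95 exon bases with TNFAIP3 and averaged 0.232 FPKM untreated and 0.203 FPKM treated.

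By deposited level, the order without IFNβ was RELA, NFKB2, NFKBIA, NFKB1, NFKBIE, NFKBIZ, RELB, TNFAIP3, BIRC3 and REL. Only NFKBIZ and RELB overlapped as neighbours. With IFNβ, NFKBIE moved behind NFKBIZ and RELB, and only RELB and NFKBIE overlapped. The place of NFKB1, NFKB2 and NFKBIA in this order depends on the gene length, as NFKBIA averaged 7.78 FPKM untreated on the deposited and 11.1 on the release 29 scale.

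The rest of the pathway was read from 7 lists holding 86 genes, of which 76 were tested. Of these, 31 were higher and 14 lower (59.2% called, beside 32.7% of all tested genes), with a median log2 fold change of 0.16. For 56 of them the groups did not overlap, as for 46.6% of all tested genes. The share called depends on level. With a filter of 1 FPKM, 46 of the 64 list genes kept were called, beside 6451 of all 11996 genes kept. The lists were chosen with earlier results of these data known, so these shares are descriptive only. Genes were called in both directions in 6 of the 7 lists.

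Of the other IκB proteins, NFKBIB, the IκBβ gene, was lower and BCL3 and NFKBID were not called. NFKBIB had 10.5, 11.6 and 12.5 FPKM untreated and 9.32, 9.44 and 9.53 FPKM treated, a decrease in every treated library (log2 fold change −0.29, SE 0.062, limma adjusted p = 0.014). For BCL3, a nuclear co-regulator of p50 and p52, the groups overlapped and the log2 fold change was 0.33 (limma adjusted p = 0.07). BCL3 passed in 4 of 16 other settings, among them limma-voom on recovered fragments (adjusted p = 0.0072).

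Of 10 genes of IKK, IKK-related and upstream kinases and their adaptors, 4 were higher and 1 was lower. Their median log2 fold change was 0.08. IKBKE, the IKK-related kinase IKKε, had 5.86, 6.29 and 5.92 FPKM untreated and 8.66, 8.5 and 9.03 FPKM treated, with no overlap (log2 fold change 0.53, SE 0.04, limma adjusted p = 0.00018). IKBKB, the catalytic subunit that acts on IκBα, had a log2 fold change of 0.19 (limma adjusted p = 0.017), and TAB3, an adaptor of the kinase TAK1, one of 0.15 (limma adjusted p = 0.022). IKBKB lost its call without untreated library 3, treated library 1 or treated library 3 (adjusted p = 0.056, 0.054 and 0.06), and TAB3 without any one of 5 libraries (adjusted p = 0.056 to 0.073). TAB1, another TAK1 adaptor, had a log2 fold change of −0.14 (limma adjusted p = 0.077). The one lower call, MAP3K7, the gene of TAK1, was lost in 10 of 16 other settings. Of the kinase list, 2 genes were higher without untreated library 1 or treated library 1 and 1 without treated library 3, and 0 were lower without untreated library 3 or any one of the treated libraries.

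Of 12 tested receptor-proximal adaptors, 7 were higher, BIRC2 among them, and 2 lower, with a median log2 fold change of 0.25. The higher call of IRAK4 was lost in 5 of 16 other settings. Without untreated library 1 or 3, or treated library 1 or 3, 6 adaptors were higher, and without untreated library 2 there were 8. TRADD, the adaptor of TNF receptor 1, had 5.2, 4.89 and 4.75 FPKM untreated and 7.8, 7.88 and 7.85 FPKM treated, all treated libraries being higher (log2 fold change 0.66, SE 0.04, limma adjusted p = 7.3e-05). TRAF1 and the kinase RIPK1 were higher by 0.42 and 0.34 on the log2 scale (limma adjusted p = 0.0042 and 0.0016). IRAK1, a kinase of the interleukin-1 and Toll-like receptor route, was lower in all treated libraries, at 80.7, 80.8 and 79.2 FPKM against 105, 102 and 107 FPKM (log2 fold change −0.39, SE 0.021, limma adjusted p = 4.9e-05). MYD88, the adaptor of that route, was listed between 0.0305 and 0.113 FPKM and was not tested.

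Of 12 genes listed as ubiquitin editors and other brakes, 5 were higher and 1 was lower, with a median log2 fold change of 0.22. The list also holds subunits of the linear ubiquitin ligase, which are not brakes. RBCK1, the HOIL-1 subunit of the linear ubiquitin ligase, had 8.35, 7.89 and 7.84 FPKM untreated and 16.6, 15.6 and 15.4 FPKM treated (log2 fold change 0.98, SE 0.041, limma adjusted p = 1.4e-05). The treated libraries were all far above the untreated ones. SHARPIN, another subunit of that ligase, was higher by 0.27 on the log2 scale (limma adjusted p = 0.00078). RNF31, also a subunit, was low, with means of 0.203 FPKM untreated and 0.337 FPKM treated. It was not called (log2 fold change 0.53, limma adjusted p = 0.069), but passed in 2 of 15 other settings. Its exons overlap another gene on the same strand over 34.8% of their length. The deubiquitinases OTUD7B and CYLD were higher by 0.36 and 0.29 (limma adjusted p = 0.0017 and 0.01), and TNIP2, an A20-binding protein, was lower (log2 fold change −0.26, limma adjusted p = 0.00038).

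Among ligands, 4 of 9 were tested, since TNF, LTA, LTB, TNFSF11 and CD40LG stayed under a mean of 0.1 FPKM. TNFSF13B, the B-cell activating factor BAFF, had 0.444, 0.43 and 0.516 FPKM untreated and 18.2, 16.8 and 18.2 FPKM treated, the largest difference of the 76 tested pathway genes (log2 fold change 4.99, SE 0.073, limma adjusted p = 1e-07). IL1B, the interleukin-1β gene, was lower in all treated libraries, at 8.68, 9.76 and 9.17 FPKM against 11, 12.7 and 11.1 FPKM (log2 fold change −0.33, SE 0.07, limma adjusted p = 0.013). IL1A had a log2 fold change of 0.15 (limma adjusted p = 0.32).

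Of 8 tested receptors, 3 were higher and 1 lower. TNFRSF1B, TNF receptor 2, was low in the untreated libraries, at 0.127, 0.0981 and 0.121 FPKM, and stood at 0.636, 0.339 and 0.486 FPKM in the treated ones. All treated values were above all untreated ones (log2 fold change 1.42, SE 0.25, limma adjusted p = 0.0059). The untreated values of TNFRSF1B rested on 11, 11 and 15 fragments, and its log2 fold change ran from 0.41 to 2.04 over 15 other settings. The third higher call, IL1R1, the interleukin-1 receptor, was lost in 7 of 15 other settings. LTBR, the lymphotoxin β receptor that drives the non-canonical arm, was higher by 0.29 on the log2 scale (limma adjusted p = 0.00035), and TNFRSF12A, the receptor of TWEAK, was lower (log2 fold change −0.29, limma adjusted p = 0.0041). IL1RAP and TNFRSF11A had log2 fold changes of 0.18 and 0.14 (limma adjusted p = 0.12 and 0.14).

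Of 27 tested genes from a list of well-known NF-κB targets, 11 were higher and 7 lower, with a median log2 fold change of 0.16. CCL2, a monocyte-attracting chemokine, had 1.06, 1.45 and 1.04 FPKM untreated and 3.24, 4.1 and 4.42 FPKM treated (log2 fold change 1.65, SE 0.16, limma adjusted p = 0.00053). CSF1, the macrophage growth factor, had 27.1, 25.7 and 26.1 FPKM untreated and 61.2, 59.4 and 60.6 FPKM treated (log2 fold change 1.20, SE 0.025, limma adjusted p = 5.3e-07). Both genes were higher in every treated library.

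IRF1, a transcription factor, had 1.76, 2.13 and 1.65 FPKM untreated and 4.37, 4.42 and 4.32 FPKM treated, a log2 fold change of 1.21 (SE 0.094, limma adjusted p = 0.0002). IL6 and ICAM1 were low in level and had log2 fold changes of 1.51 and 1.14 (limma adjusted p = 0.0044 and 0.017). ICAM1 lost its call without treated library 1 or 2 (adjusted p = 0.056 and 0.061). Exons of IRF1, IL6 and ICAM1 overlap antisense genes over 22%, 20.7% and 22% of their length, and the sources used here do not state whether counting used strand.

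In the other direction BCL2A1, an anti-apoptotic BCL2 relative, had 7.04, 6.4 and 7.66 FPKM untreated and 2.55, 2.7 and 2.43 FPKM treated (log2 fold change −1.42, SE 0.075, limma adjusted p = 3.9e-05). The treated libraries were all far below the untreated ones. CXCL8, the interleukin-8 gene, named after its values were seen, had 5.36, 6.68 and 5.55 FPKM untreated and 3.53, 3.63 and 3.74 FPKM treated (log2 fold change −0.67, SE 0.086, limma adjusted p = 0.0016). The target list had 7 lower calls with all libraries and 4 without untreated library 2 or 3, where CXCL3, TNFAIP8 and CD83 were not called. CXCL1 and CXCL2 are listed at 0 in all libraries. IRF1, ICAM1, CCL2 and TNFSF13B are also known as interferon-responsive genes, and a direct interferon response and a response through NF-κB cannot be told apart in these libraries.

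**Figure D5:**
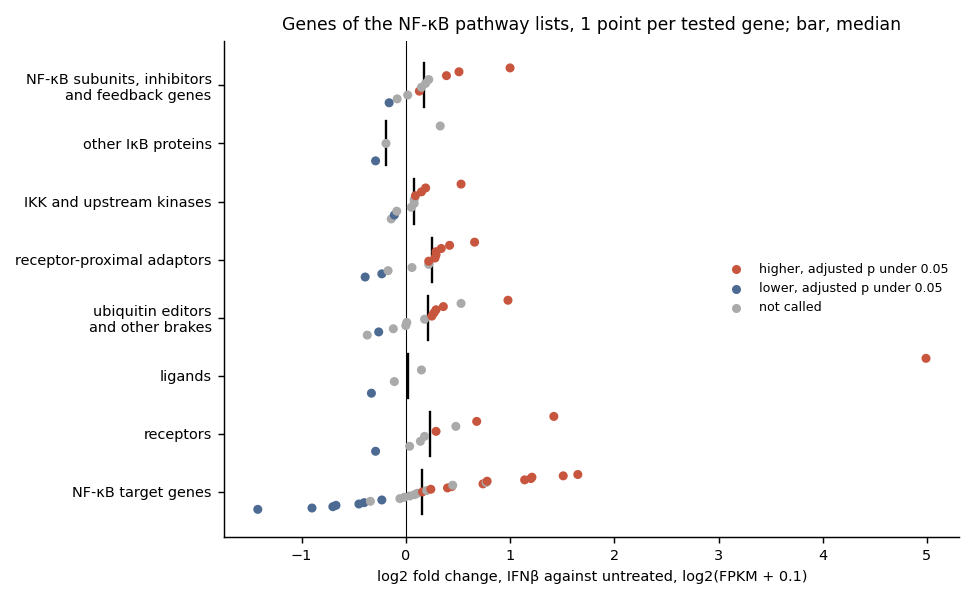
Log2 fold change of each tested gene in the set of 10 and in the 7 pathway lists. Each point is 1 gene, red and blue are genes called higher and lower, grey is not called, and black bars are list medians. The point near 5 is TNFSF13B, and the target list runs from −1.42 (BCL2A1) to 1.65 (CCL2).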

How the data were processed

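RNA-seq (paired-end, from extracted total RNA of HT1080 cells) was available for 3 untreated and 3 IFNβ-treated libraries, grouped by title. The study's methods state that mRNA was enriched before cDNA was made. The authors deposited 1 table of FPKM values per Ensembl gene. The submitters' processing notes name fastp, HISAT2, StringTie and GRCh38, and versions, strand setting and annotation are not given in the sources used here. FPKM were used as deposited. Genes with a mean of at least 0.1 FPKM (20716 of 62710) were fitted on log2(FPKM + 0.1) with limma 3.58.1 (R 4.3.3, empirical Bayes with an intensity trend) and adjusted by Benjamini-Hochberg over all tested genes. The scripts were tested on simulated data.

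Whole fragments, at least 1 for every value above 0 and to a tolerance of 0.01 fragments, were recovered from the FPKM steps for 32316 of 35303 genes above 0 (91.5%), and gave the depths (22848104 to 32915500 fragments). Of these genes 17101 were whole with the exon length of GENCODE release 29. For 15215 the smallest length that made all values whole was taken, which needed values above 0 in at least 4 libraries, and the other 2987 had fewer. Of the table, 4436 identifiers are absent from that release. limma-voom on the recovered fragments (20685 genes) called 7935 genes, against 6778. Libraries of a group differed by more than counting noise (chi-square per degree of freedom 1.78 to 3.39), so none was taken as the same library deposited again. This does not show whether they came from separate cultures.

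The 10 genes and the pathway and marker lists were chosen with earlier results of these data known. Named beside the 10 genes are, per pathway list, up to 4 tested genes with the largest absolute log2 fold change at a mean of at least 1 FPKM, every list gene called with a log2 change of 1 or more in size, genes of the interferon check list, the 5 genes nearest to the most changed of the 10, and genes whose exons overlap one of the 10. Alternatives varied the pseudocount, filter, scaling, variance trend, replicate block, libraries and count model. Division by release 29 exon lengths was added after seeing the data. CXCL8, BIRC2 and RNF31 were named after their values were seen.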

Additional observations from a re-analysis of the deposited data

How the results depend on the processing

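Of the 10 genes, 3 to 5 were called higher and 1 lower in every alternative. RELA lost its call in 1 of 16 alternatives, RELB gained one in 4 of 16, and none of the 10 changed direction while called. The count of all genes called with a log2 fold change of at least 1, 875 as reported, was 304 with a pseudocount of 1 and 425 with a filter of 1 FPKM, where BIRC3 and REL were not tested. With the release 29 exon length the mean share of NFKB1 moved by −6.33 percentage points and that of RELA by −0.625. Genes called ranged from 5579 to 7935. Whether the replicate numbers pair the libraries could not be decided. Same-number correlations of deviations from the group mean were 0.014, 0.0228 and 0.0307 over 20716 genes. Those between different numbers ran from −0.0286 to 0.00577. All are near 0, and with 3 libraries per group such small differences cannot show or exclude a pairing. A fit with the replicate block called 6069 genes and 5 of the 10 genes higher, RELB among them with a log2 fold change of 0.22 (limma adjusted p = 0.041). Quantile normalization moved the median of all genes to −0.06 and the higher share of calls from 46.5 to 39.2%. REL and BIRC3 rested on the fewest fragments, and depth limits their precision.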
